A study of Mus musculus with 28 samples.

Results

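Tumours with a high and with a low level of Mki67, the gene of the proliferation marker Ki-67, were compared across all other genes. Each of 14 hepatocellular carcinomas of mouse liver was ranked by Mki67 in counts per 1000000 counts of its library (CPM), and the 5 highest (Mki67-high), chosen by this measured value alone, were set against the 5 lowest (Mki67-low). These 10 tumours come from a series of 28 RNA sequencing libraries, 14 of tumour (Tu) and 14 of peritumour liver (Pe), paired by a sample code that was taken as the animal. All animals carry a c-Myc transgene and Alb-cre, in which the albumin promoter directs Cre recombinase to hepatocytes, so Mki67-high, middle and Mki67-low animals share the genotype and no animal without it was used. The Mki67-high class holds 2 M and 3 F animals and the Mki67-low class 5 F animals. The sources used here give no ages and leave F and M unexpanded. The classes are not groups of the study. They were cut from Mki67 counts of the libraries in which the other genes were then compared, so the tests in tumours describe which genes went with Mki67 in these libraries. The peritumour libraries took no part in the ranking. Labels do not say more of how the samples were taken, so p-values measure the spread between these samples. In pieces of tissue, fewer cells of a type and less RNA per cell cannot be told apart.

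Ki-67 is a large protein that coats chromosomes in mitosis, and its transcript is made in dividing cells and lost in resting ones, which is why pathologists use it to count dividing cells. Genes of the cell cycle come in waves. E2F factors switch on DNA replication genes as cells enter S phase, and the MuvB complex with B-MYB and FOXM1 drives genes of G2 phase and mitosis later. Most hepatocytes of an adult liver rest, and MYC is known to drive cells into the cycle and to raise ribosome and nucleotide synthesis.

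Mki67-high tumours were Tu_M replicate 2 (286 CPM), Tu_F replicate 2 (261 CPM), Tu_F replicate 3 (163 CPM), Tu_M replicate 1 (149.9 CPM) and Tu_F replicate 4 (108 CPM). Mki67-low tumours were Tu_F replicate 9 (25.9 CPM), Tu_F replicate 6 (25.1 CPM), Tu_F replicate 8 (22.6 CPM), Tu_F replicate 11 (8.64 CPM) and Tu_F replicate 10 (7.68 CPM). Values of single animals follow in these orders throughout. The middle tumours ran from Tu_F replicate 1 (99.4 CPM), just under the Mki67-high class, to Tu_F replicate 5 (48.4 CPM), just above the Mki67-low class. These values chose the classes and carry no test. Mki67 (gene ID 17345) lies on chromosome 7 at 135689788 to 135716409 of GRCm38.

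The classes also differed in ways other than Mki67. Sample codes come in 2 styles, a possible batch: 4 Mki67-high tumours have the first style and Tu_F replicate 4 the second, whereas all 5 Mki67-low tumours have the second. A fit with code style as covariate therefore rests its class difference on Tu_F replicate 4 against the Mki67-low tumours, and in a fit without it class and code style cannot be told apart beyond that tumour. Both fits are given. Base composition differed between the classes too, and between the code styles. The median log2 deviation of genes in the lowest quintile of transcript GC minus that of genes in the highest quintile was -0.08 to 0.37 in Mki67-high and -1.26 to -0.04 in Mki67-low tumours (means 0.21 and -0.54, two-sided exact permutation test, p = 0.0159, adjusted over 5 tests 0.0265). Tu_F replicate 4, the Mki67-high tumour of the second style, lay at -0.08, within the Mki67-low range. Within the styles Mki67 and this deviation ran in opposite directions and did not pass. Pearson's r was -0.71 over 6 tumours of the first style and 0.59 over 8 of the second (permutation p = 0.108 and 0.119, both adjusted over 3 relations 0.119). In peritumour the means of the GC deviation were 0.33 next to Mki67-high and -0.16 next to Mki67-low tumours (exact permutation test, p = 0.0159, adjusted 0.0265). Long minus short transcripts gave means of 0.17 against -0.26 in tumours (exact permutation test, p = 0.0794). The part of this deviation in the results was not tested by itself, and a fit with an offset per library for transcript length and GC is set beside the others. Library totals were 14777567 to 17576921 estimated counts.

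**Figure D1:**
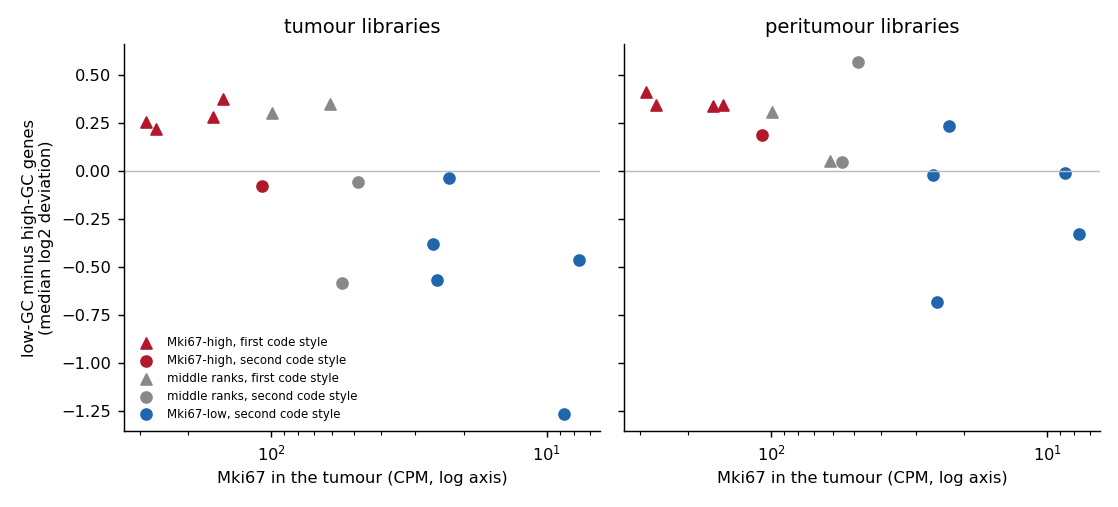
Low-GC minus high-GC genes (median log2 deviation per library) against tumour Mki67 in CPM (log axis, falling to the right) in tumour and in peritumour libraries; triangles are the first code style and circles the second. Tumours of the first style lie between 0.22 and 0.37 and those of the second between -1.26 and -0.04.

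Peritumour liver, which the ranking did not use, separated the same animals. Mki67 measured 124, 203, 228, 158 and 172 CPM next to Mki67-high tumours, against 27.0, 15.8, 26.2, 51.7 and 19.3 CPM next to Mki67-low tumours. No value of one set reaches the other. The mean log2(CPM + 0.5) was 7.44 against 4.71, a difference of 2.73 (two-sided exact permutation test, p = 0.00794, the smallest it can give, adjusted over 5 tests 0.0265). In edgeR the log2 fold change was 2.53 ± 0.32 (SE) without covariate, adjusted p = 0.00275, and 2.54 ± 0.47 with code style, adjusted p = 0.0537. Within the second code style Pe_F replicate 4 lay 2.72 above the mean of the 5 Mki67-low animals (exact permutation test, p = 0.167, the smallest that 1 against 5 can give), and the first style holds no Mki67-low animal. Over 14 animals tumour and peritumour Mki67 had a Pearson's r of 0.749 (permutation p = 0.00281, adjusted over 3 relations 0.00843) and a Spearman's rho of 0.723 (permutation p = 0.00451). Without F replicates 10 and 11, the farthest from the median, r was 0.795 (permutation p = 0.00449). Within the styles the relation did not pass: r was 0.647 over 6 animals (exact permutation p = 0.168) and 0.555 over 8 (exact permutation p = 0.154). F replicate 5 departs from the order, with 48.4 CPM in tumour and 159 CPM in peritumour.

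**Figure D2:**
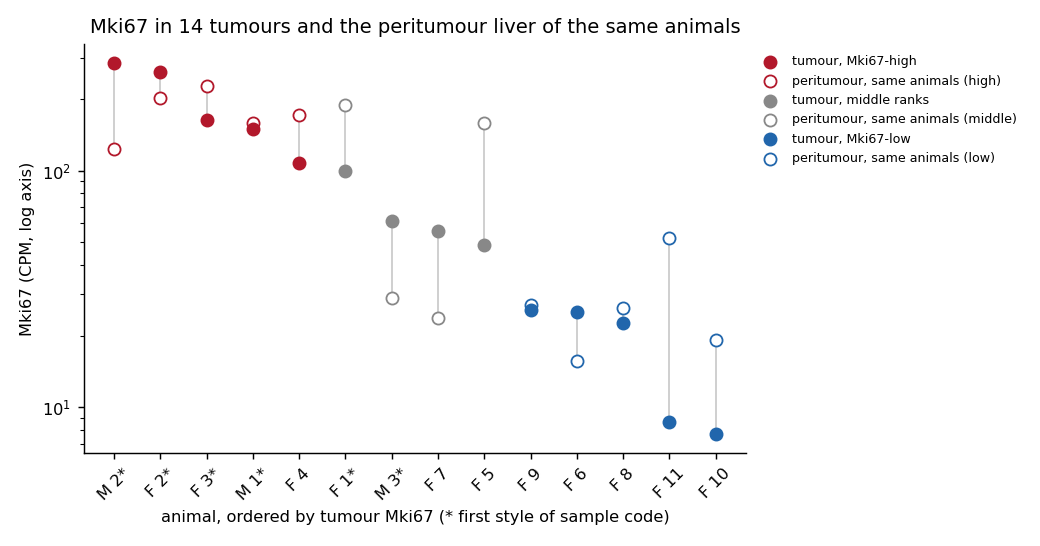
Mki67 in CPM (log axis) in each tumour and in the peritumour liver of the same animal, in falling order of tumour Mki67; an asterisk marks the first code style. Peritumour values of the Mki67-high animals (124 to 228 CPM) lie above those of the Mki67-low animals (15.8 to 51.7 CPM).

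Across the other genes, edgeR's quasi-likelihood test without covariate called 1155 of 13096 genes higher in Mki67-high tumours (8.82%) and 499 lower (3.81%), at a Benjamini-Hochberg adjusted p under 0.05. With code style it called 51 higher (0.389%) and 1 lower (0.00764%), and 50 of the 51 were also called without it. The length and GC offset without covariate gave 594 higher (4.54%) and 442 lower (3.38%), of which 523 and 171 were shared with the fit without offset. With log2 Mki67 as a continuous term over all 14 tumours beside code style, 204 of 13818 genes went up with Mki67 (1.48%) and 114 went down (0.825%). Calls followed GC: in the lowest quintile of transcript GC 34.6% of genes were called higher without covariate and 0.464% lower, and in the highest quintile 0.657% higher and 3.67% lower. With the offset and no covariate calls still gathered in the lowest quintile. They were 12.6% higher and 8.89% lower there, against 1.16% and 1.51% in the highest. Leaving out any of the 9 tumours other than Tu_F replicate 4 moved the code style count by over 1.5 times, to between 1 without Tu_F replicate 3 and 203 without Tu_F replicate 8. Without Tu_F replicate 4 class and code style coincide, so no fit with code style could be made. Log2 fold changes are of Mki67-high over Mki67-low, without covariate unless another fit is named. Fits with the offset are also without covariate unless code style is named.

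A part of the mitosis genes rose with Mki67. Of 66 tested members of the G2 phase and mitosis list, which does not hold Mki67, 22 were called higher and 0 lower, against 8.82% of all genes called higher. The list's median log2 fold change was 0.56, against -0.02 over all genes tested. In 22 members the CPM of the classes did not overlap, with Mki67-high above, as in 11.8% of all genes (1.24% in the opposite direction). With code style 1 member, Smc4, was called, and the list median was 0.30 against -0.06 over all genes. Without covariate, the length and GC offset kept 19 of the 22. With the offset and code style together 0 of 66 were called, at a list median of 0.24. The continuous term beside code style called 22, of which 20 were shared with the 22 called without covariate. Leaving out 1 animal gave 20 to 31 members. Without the animals F replicates 2, 4, 5 and 6 the count was 21. An earlier look at these data found libraries rich in blood precursor genes among theirs, which need not be the tumour libraries.

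Of the 5 condensin genes on the list 3 rose. Smc4, a core subunit of the condensin complexes that compact mitotic chromosomes, measured 93.1, 90.0, 76.9, 67.5 and 70.2 CPM in Mki67-high tumours, against 14.9, 14.2, 12.6, 7.29 and 5.58 CPM in Mki67-low tumours. Tu_F replicate 4 lies with the other Mki67-high tumours and above the Mki67-low tumours of its own code style. That tumour was itself chosen for high Mki67, which Smc4 followed most closely of 9347 genes (Spearman's rho 0.98 over the 14 tumours). Smc4 had a log2 fold change of 2.64 ± 0.24 (SE, adjusted p = 0.00045, edgeR), and of 2.63 ± 0.35 with code style (adjusted p = 0.0231). With the offset and no covariate it was 1.85 ± 0.21 (adjusted p = 0.00251, edgeR). The gene (ID 70099) lies on chromosome 3 at 69004972 to 69034623. Its partner Smc2 (2.07) and the condensin I subunit Ncapg (1.78) rose too, and the subunits Ncaph (-0.21) and Ncapd2 (0.03) did not pass.

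At the kinetochore, where chromosomes meet the spindle, Cenpe, a kinesin that carries chromosomes to the spindle equator, had 31.4, 40.4, 23.2, 18.4 and 20.0 CPM in Mki67-high and 5.40, 5.76, 2.70, 2.17 and 1.14 CPM in Mki67-low tumours. The classes were apart in every library. Its log2 fold change was 2.72 ± 0.37 (SE, adjusted p = 0.00114, edgeR), and 2.50 ± 0.54 with code style (adjusted p = 0.0737). Cenpf, an outer kinetochore protein, had 29.7, 49.97, 22.9, 17.9 and 14.1 CPM against 5.34, 5.32, 4.00, 2.94 and 1.93 CPM in Mki67-low tumours, a log2 fold change of 2.50 ± 0.32 (adjusted p = 0.000918). Knl1 (2.17) and Ndc80 (1.64), which tie kinetochores to microtubules, and the spindle checkpoint kinases Bub1 (1.71) and Ttk (1.43) rose as well. Knl1 was not called with the offset (adjusted p = 0.0592, edgeR). Nuf2, Spc24, Spc25, Ska1, Ska3 and Cenpa of the same list are not given here, so these rises do not speak for kinetochore genes as a group.

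Among spindle genes, Kif11, the kinesin that pushes spindle poles apart, measured 86.7, 94.9, 67.9, 54.8 and 52.8 CPM in Mki67-high and 22.0, 21.1, 17.2, 9.64 and 10.2 CPM in Mki67-low tumours. Every Mki67-high value lies above every Mki67-low value, and the log2 fold change was 1.92 ± 0.23 (SE, adjusted p = 0.000602, edgeR). Of the other kinesins on the list Kif18a (2.39), Kif20b (2.32), Kif23 (2.05), Kif15 (1.83) and Kif4 (1.23) rose in the same fit. The list also holds Kif20a, Kif2c, Kif14, Kif18b, Kif22 and Kifc1, whose values are not given here. These rises therefore do not speak for its kinesins as a group. Hmmr, a spindle assembly factor, had 73.6, 64.3, 60.6, 56.7 and 39.3 CPM against 18.4, 13.5, 13.5, 11.4 and 10.2 CPM in Mki67-low tumours (adjusted p = 0.000567, and 0.0505 with code style, edgeR). Aspm, a spindle pole protein, ranged from 8.66 to 32.9 CPM in Mki67-high and from 2.10 to 4.82 CPM in Mki67-low tumours, a log2 fold change of 2.29. Top2a, the topoisomerase that untangles sister chromatids, had 212, 233, 152, 123 and 106 CPM against 75.1, 75.4, 55.1, 39.4 and 31.3 CPM in Mki67-low tumours. It rose by 1.33 ± 0.25 (adjusted p = 0.00496, edgeR) and did not pass with code style (adjusted p = 0.467).

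**Figure D3:**
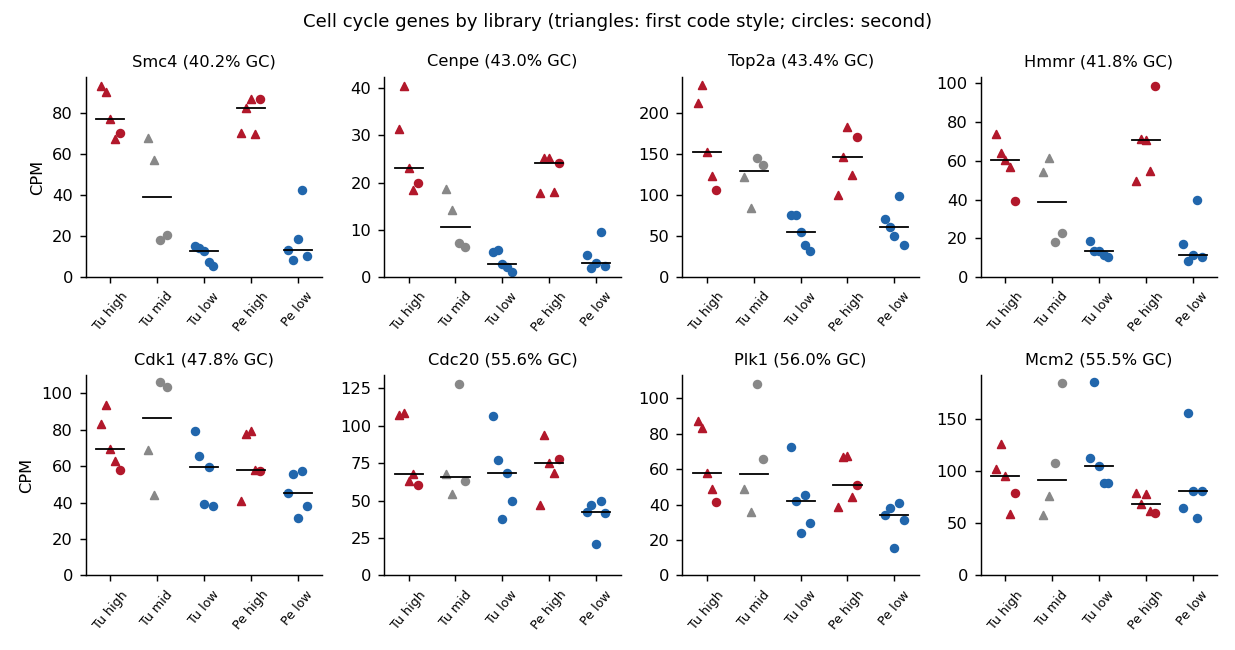
CPM of 8 cell cycle genes in each library by class in tumour and peritumour; lines are medians, triangles the first code style and circles the second. In tumours Smc4, Cenpe, Top2a and Hmmr do not overlap between Mki67-high and Mki67-low, whereas Cdk1, Cdc20, Plk1 and Mcm2 do.

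Promoters are shown because mitotic genes share a short element, the cell cycle genes homology region, which MuvB complexes contact. They are those of Mki67 and of the 4 called mitosis genes with the smallest adjusted p whose promoter holds TTTGAA or its reverse complement TTCAAA, the letters in capitals. The rule was applied to the fit without covariate, after values were seen. Each runs 5′ to 3′ from 250 bases before to 50 after the RefSeq start on GRCm38.p6: chr7:135716330-135716629 (minus strand) for Mki67, chr11:40733388-40733687 (minus) for Hmmr, chr19:37376132-37376431 (plus) for Kif11, chr3:159495183-159495482 (plus) for Depdc1a and chr19:34922108-34922407 (plus) for Kif20b.
Mki67: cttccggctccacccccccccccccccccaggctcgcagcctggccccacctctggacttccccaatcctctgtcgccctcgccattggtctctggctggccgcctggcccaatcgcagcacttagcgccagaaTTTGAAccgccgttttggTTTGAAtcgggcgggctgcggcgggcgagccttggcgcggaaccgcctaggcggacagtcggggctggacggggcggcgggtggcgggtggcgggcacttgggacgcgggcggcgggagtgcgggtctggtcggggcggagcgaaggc
Hmmr: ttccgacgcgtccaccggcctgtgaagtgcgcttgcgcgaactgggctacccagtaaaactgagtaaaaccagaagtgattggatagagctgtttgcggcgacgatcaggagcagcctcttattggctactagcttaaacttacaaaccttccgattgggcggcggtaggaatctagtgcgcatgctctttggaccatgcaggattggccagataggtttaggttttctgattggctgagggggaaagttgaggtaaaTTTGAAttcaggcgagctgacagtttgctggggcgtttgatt
Kif11: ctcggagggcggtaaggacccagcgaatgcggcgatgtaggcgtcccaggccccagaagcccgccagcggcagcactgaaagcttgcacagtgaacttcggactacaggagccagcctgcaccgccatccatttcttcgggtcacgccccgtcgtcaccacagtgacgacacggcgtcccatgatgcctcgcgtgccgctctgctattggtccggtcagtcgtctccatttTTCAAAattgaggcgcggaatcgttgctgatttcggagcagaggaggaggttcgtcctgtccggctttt
Depdc1a: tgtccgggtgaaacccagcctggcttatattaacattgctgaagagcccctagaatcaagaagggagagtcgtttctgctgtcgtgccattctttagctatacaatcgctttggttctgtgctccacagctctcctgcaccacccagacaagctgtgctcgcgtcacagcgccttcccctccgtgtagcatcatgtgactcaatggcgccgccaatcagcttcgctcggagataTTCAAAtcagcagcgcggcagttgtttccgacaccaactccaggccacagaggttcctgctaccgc
Kif20b: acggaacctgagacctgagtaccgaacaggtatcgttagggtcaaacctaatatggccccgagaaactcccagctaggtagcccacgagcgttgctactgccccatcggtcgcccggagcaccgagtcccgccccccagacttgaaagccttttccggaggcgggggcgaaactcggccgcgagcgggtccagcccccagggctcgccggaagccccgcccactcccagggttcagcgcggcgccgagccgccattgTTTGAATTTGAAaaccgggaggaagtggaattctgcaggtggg
RefSeq promoters matched 53 of the 66 members, and 39 of them (73.6%) held the motif on either strand, against 20.2% of 27025 genes. It stood in 17 of 21 called members (81.0%) and in 22 of 32 others (68.8%). A match is a run of letters, not a site shown to be bound.

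Several central mitotic genes did not pass. Cdc20, the activator of the anaphase-promoting complex, measured 107, 108, 63.3, 67.5 and 60.3 CPM in Mki67-high and 106, 77.2, 37.9, 68.7 and 49.7 CPM in Mki67-low tumours. The classes overlap over most of their range, at a log2 fold change of 0.00 ± 0.26 (SE, adjusted p = 0.997, edgeR). Plk1, the polo kinase of mitotic entry, had 87.0, 83.5, 57.7, 48.8 and 41.2 CPM against 72.3, 42.1, 23.9, 45.2 and 29.4 CPM in Mki67-low tumours (0.32 ± 0.29, adjusted p = 0.495). Cdk1, the mitotic cyclin-dependent kinase, gave 0.12 ± 0.21, and Aurkb, the kinase of the chromosomal passenger complex, gave -0.07 ± 0.24. Ccnb1, the cyclin of Cdk1, ranged from 40.7 to 86.8 CPM in Mki67-high and from 21.4 to 48.1 CPM in Mki67-low tumours (0.66 ± 0.21, adjusted p = 0.0605, edgeR). Foxm1, a factor that drives this wave, gave 0.38 ± 0.24 (adjusted p = 0.31). The highest Cdc20 (128 CPM) and Plk1 (108 CPM) of the 14 tumours stood in Tu_F replicate 7, a middle tumour. By mean log2 CPM of the mitosis list Tu_F replicates 5 and 7 ranked 4 and 5 of 14, and Tu_F replicate 4 ranked 9, behind Tu_F replicate 9 of the Mki67-low class. Ranked that way, 1 gene was called higher with code style, Jchain, and 3 lower, Acaa1b, Decr2 and Eif4ebp3.

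Called and uncalled members differed in base composition. Of the 33 members at or below 46.2% transcript GC, 20 were called (median log2 fold change 1.43), and of the 33 above it 2 were, Kif23 and Kif4 (median 0.05). Spearman's rho between log2 fold change and GC was -0.73 over the 66 genes, a description across genes that share their libraries. With the offset 17 and 2 were called, with medians of 0.97 and 0.24 and a rho of -0.42. Stretches of coding sequence from a pair of called and a pair of uncalled members show the difference. Each has 90 bases with a GC close to that of its transcript, 5′ to 3′, with G and C in capitals, from GENCODE vM21 on GRCm38: chr3:69009517-69009606 (plus strand, exon 5) of Smc4, chr3:135216546-135216635 (plus, exon 4) of Cenpe, chr4:118436748-118436837 (minus, exon 2) of Cdc20 and chr7:122159689-122159778 (plus, exon 1) of Plk1.
Smc4: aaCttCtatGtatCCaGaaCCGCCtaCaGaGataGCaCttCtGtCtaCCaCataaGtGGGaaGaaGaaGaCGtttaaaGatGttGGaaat
Cenpe: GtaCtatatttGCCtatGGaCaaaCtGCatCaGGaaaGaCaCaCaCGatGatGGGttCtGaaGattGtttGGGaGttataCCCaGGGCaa
Cdc20: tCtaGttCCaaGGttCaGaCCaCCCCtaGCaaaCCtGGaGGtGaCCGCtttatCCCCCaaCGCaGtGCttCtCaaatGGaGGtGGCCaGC
Plk1: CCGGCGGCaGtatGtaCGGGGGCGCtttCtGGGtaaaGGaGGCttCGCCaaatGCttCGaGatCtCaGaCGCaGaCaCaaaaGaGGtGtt
Smc4 and Cenpe hold 40.0% and 43.3% GC in these stretches, and Cdc20 and Plk1 hold 55.6% each.

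**Figure D4:**
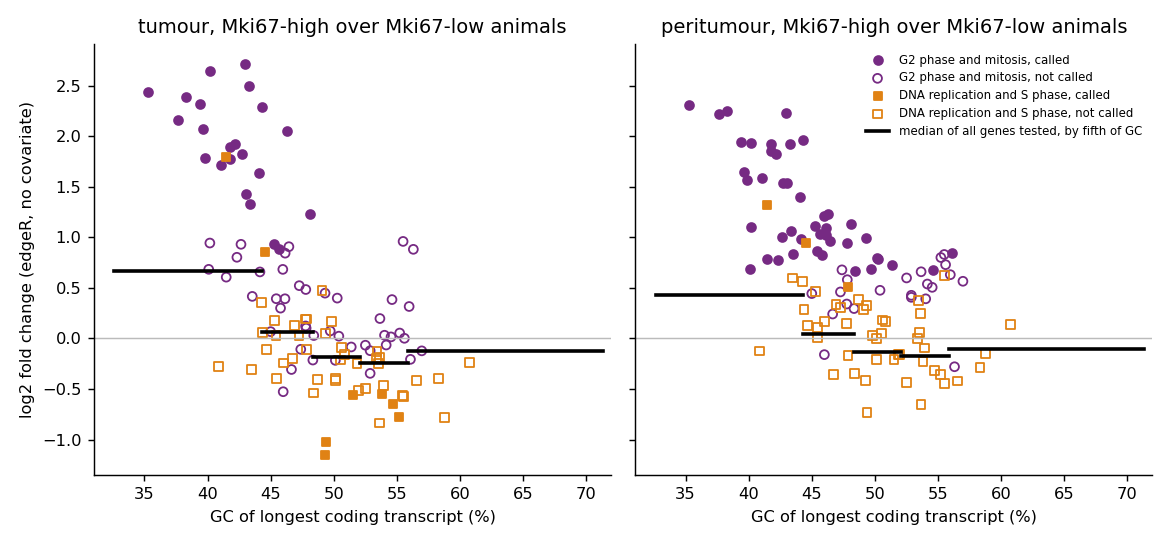
Log2 fold change (edgeR, no covariate) against transcript GC in percent for the mitosis and DNA replication lists in tumour and in peritumour; black bars are medians of all genes tested by quintile of GC. In tumours 20 of the 22 called mitosis genes lie at or below 46.2% GC.

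DNA replication genes did not rise as a group. Of 48 tested members 2 were called higher and 6 lower, beside 8.82% and 3.81% of all genes (median -0.24, all genes -0.02). With code style 0 passed (median -0.50). With the continuous term 0 passed, at a median slope of 0.06 (31 of 48 above 0), near the 0.05 over all genes (8140 of 13818 above 0). Calls followed GC here too. Of the 24 members at or below 49.97% transcript GC 2 were higher and 2 lower without covariate (median 0.03). Of the 24 above it 0 were higher and 4 lower (median -0.42). With the offset 0 of the 48 were higher and 3 lower. The count of falls rested on single animals: it was 1 without F replicate 3, F replicate 6 or M replicate 1, 2 without F replicate 9, 3 without F replicate 2 or F replicate 4, and 10 without M replicate 2. Without F replicates 2, 4, 5 and 6 it was 2 higher and 0 lower. Cdc45, part of the replicative helicase, measured 32.0, 23.0, 24.6, 19.9 and 25.4 CPM in Mki67-high and 54.3, 65.4, 44.2, 47.5 and 26.8 CPM in Mki67-low tumours. All Mki67-low values but that of Tu_F replicate 10 lie above every Mki67-high value, and Cdc45 fell by 1.16 ± 0.23 log2 (SE, adjusted p = 0.00762, edgeR). Cdc6, which loads the helicase, fell by 1.02 ± 0.25 (adjusted p = 0.0206), and Chaf1a, a histone chaperone of the replication fork, by 0.78 ± 0.20 (adjusted p = 0.0238). These 3 also passed with the offset. Pola2, Rpa2 and Fen1 fell by 0.65, 0.56 and 0.55 and did not pass with it. Pola1, the catalytic subunit of DNA polymerase alpha, rose by 1.80 ± 0.36 (adjusted p = 0.00778) and did not pass with the offset.

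Mcm2, a helicase subunit, had 102, 126, 95.1, 58.5 and 78.5 CPM in Mki67-high and 113, 185, 105, 88.5 and 88.5 CPM in Mki67-low tumours (-0.58 ± 0.21, SE, adjusted p = 0.0864, edgeR). Pcna, the sliding clamp, ranged from 137 to 230.5 CPM against 105 to 204 CPM (0.18 ± 0.20), and E2f1, which switches on this wave, from 15.0 to 36.4 CPM against 22.2 to 31.4 CPM (-0.39 ± 0.23). All 3 overlapped between the classes. Of 20 genes of homologous recombination and Fanconi repair, Brca2 (1.26), Blm (1.17) and Brip1 (1.01) rose and 0 fell, beside 8.82% of all genes called higher. With the offset 0 passed, and 1 to 4 passed with 1 animal left out, with 1 the count without M replicate 2 or F replicate 3, 10 or 11. Of 18 G1 cyclins, kinases and inhibitors, cyclin E2 (Ccne2, 1.74) and the pocket protein gene Rb1 (0.92) rose, a share of the list near the 8.82% of all genes, and neither passed with the offset. Ccnd1, cyclin D1, ranged from 45.8 to 109.8 CPM in Mki67-high and from 46.1 to 194 CPM in Mki67-low tumours (-0.90 ± 0.35, adjusted p = 0.116). Cdkn1a, the p21 inhibitor, ranged from 86.2 to 164 CPM against 108 to 202 CPM (-0.68 ± 0.22, adjusted p = 0.0674). Of 18 p53 targets 1, Ccng1, cyclin G1, rose (1.07), beside 8.82% of all genes called higher (list median 0.07).

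Growth genes went both ways. Myc, the oncogene of the model, had 380.5, 622, 274, 339 and 359.7 CPM in Mki67-high and 367, 659, 289, 323 and 625.4 CPM in Mki67-low tumours. The ranges overlap almost throughout (-0.45 ± 0.26, SE, adjusted p = 0.263, edgeR). The share of transgene reads in these counts was not tested. Of 21 nucleotide and polyamine synthesis genes 0 rose and 4 fell, beside 3.81% of all genes called lower (median -0.52, all genes -0.02). Leaving out 1 animal gave 3 to 5 falls, and leaving out F replicates 2, 4, 5 and 6 gave 2. Umps, which makes the pyrimidine nucleotide UMP, had 129, 127, 125, 119 and 127 CPM in Mki67-high and 225, 222, 202, 178 and 224 CPM in Mki67-low tumours. The Mki67-high values lie within a narrow band below all Mki67-low values (-0.97 ± 0.14, adjusted p = 0.00139, edgeR; -0.80 ± 0.26 with code style, adjusted p = 0.256). Gart, of purine synthesis, ranged from 104 to 183 CPM against 209 to 331 CPM (-1.19 ± 0.19, adjusted p = 0.00221), and Adsl of the same pathway fell by 1.16. These 3 passed with the offset, and Odc1, the first enzyme of polyamine synthesis (-0.64), did not.

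Of 23 ribosome biogenesis genes 5 rose and 4 fell, beside 8.82% and 3.81% of all genes. Leaving out 1 animal gave 3 to 5 rises and 1 to 4 falls, with 1 fall without M replicate 1 or F replicate 3, 6 or 10 and 2 without M replicate 2 or F replicate 2, 4 or 9; rises were 3 without M replicate 1, M replicate 2, F replicate 2 or F replicate 8. Without F replicates 2, 4, 5 and 6 the counts were 3 and 0. Nop58 (1.58) and Dkc1 (1.56), core proteins of small nucleolar RNPs, the nucleolar proteins Ncl (1.10) and Npm1 (0.93), and Wdr43 (0.70) rose. The pre-ribosome factors Bop1 (-1.04) and Pes1 (-0.64) and the RNA polymerase I subunits Polr1a (-0.60) and Polr1c (-0.57) fell. With the offset Nop58 and Dkc1 were higher, and Bop1 and Wdr12 lower. Mga, a partner of Max in the Myc network, rose by 1.56 ± 0.25 (SE, adjusted p = 0.00229, edgeR), also with the offset.

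Liver metabolism and secretion supplied large falls, of which 0 of those named here passed with code style. Igfbp1, a secreted binding protein of insulin-like growth factors, ranged from 56.5 to 202 CPM (median 93.1) in Mki67-high and from 150.3 to 871 CPM (median 427) in Mki67-low tumours. Only Tu_F replicate 9 of the Mki67-low tumours lies within the Mki67-high range (-2.12 ± 0.49, SE, adjusted p = 0.0166, edgeR). Cyp4a14, a fatty acid hydroxylase, ranged from 130.4 to 606 CPM against 473 to 2103 CPM (-2.09 ± 0.50, adjusted p = 0.0192). Of 15 fatty acid oxidation genes 0 rose and 3 fell, beside 3.81% of all genes called lower (median -0.77), and 0 passed with the offset. The falls were 0 without F replicate 3, 6 or 10, 1 without F replicate 2, 4 or 8, and 0 without F replicates 2, 4, 5 and 6. Among them were Acaa1b, a peroxisomal thiolase (-1.34), and Slc25a20, the carnitine carrier (-1.33). Of 19 glycolysis genes the phosphofructokinases Pfkm (-1.54) and Pfkp (-0.73) fell and 0 rose, beside 3.81% of all genes called lower. Of these falls 1 was left without M replicate 1 or F replicate 3, 6, 8, 10 or 11. Of 20 lipid and cholesterol synthesis genes 1, the fatty acid elongase Elovl6 (0.92), rose, beside 8.82% of all genes called higher. It went against its list, whose median was -0.54 with 4 of 20 above 0.

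Creld2, a chaperone of the endoplasmic reticulum stress response, had 66.2, 34.8, 70.0, 35.5 and 41.0 CPM in Mki67-high and 171, 96.4, 134, 179.6 and 125 CPM in Mki67-low tumours. The classes did not overlap (-1.76 ± 0.30, SE, adjusted p = 0.00308, edgeR, and 0.00828 with the offset), and Sdf2l1 of the same response fell by 1.47. The apolipoproteins Apoa4 and Apob went opposite ways. Apoa4 ranged from 422 to 776 CPM against 895 to 2372 CPM (-1.71 ± 0.31), and Apob from 1471 to 3438 CPM against 415 to 1425 CPM (1.64 ± 0.36, adjusted p = 0.0118, and 0.0709 with the offset). Acot3 (-2.06), P4ha2 (-1.94), Ndufb4c (-1.63) and Ctif (-1.42) were among the other large falls.

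With code style, the largest rises were those of Rpl37rt (3.92), Esf1 (2.77), Smc4 (2.63), Resf1 (2.37), Arid4b (2.36) and Zfp141 (2.33). Esf1, an rRNA processing factor, had 31.4, 38.0, 29.3, 30.97 and 41.5 CPM in Mki67-high and 6.27, 6.07, 8.93, 4.70 and 3.02 CPM in Mki67-low tumours, highest in Tu_F replicate 4 (2.77 ± 0.35, SE, adjusted p = 0.023, edgeR). Nol8 (2.28), Mphosph8 (2.22), Upf2, a factor of nonsense-mediated decay (2.19), Zfp932 (2.19), Rock1, a kinase of the actin cytoskeleton (2.11), and Mphosph10 (2.09) followed. Of the 51 genes called higher 43 lie in the lowest quintile of GC, and with code style and the offset together 2 genes were called, Rpl37rt and Gm38481. The single fall, LOC100862468, which also passed without covariate, was at 7.33, 3.53, 4.58, 6.56 and 0 CPM in Mki67-high and 8.19, 16.6, 18.9, 32.9 and 35.1 CPM in Mki67-low tumours, so its fitted change with code style rests on the value in Tu_F replicate 4.

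Without covariate Hist1h2ap, Rpl37rt (3.69), Cenpe, Smc4, Postn (2.59), Cenpf, Zfp62 (2.46), Nol8 (2.43), Zfp141 (2.39), Zfp932 (2.38), Resf1 (2.37) and Zfp292 (2.36) rose most. Rpl37rt and Hist1h2ap, and likewise Ndufb4c and Tmem254c, have near-identical copies, so the reads given to each are uncertain. Rpl37rt separated the first code style and Tu_F replicate 4 from the other tumours: it was 22.8 to 61.1 CPM in the 6 tumours of the first style and 44.1 CPM in Tu_F replicate 4, against 1.92 and 3.22 CPM in the middle tumours of the second style and 1.79 to 3.41 CPM in Mki67-low tumours.

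Summed cell type markers overlapped between the classes in the lists given here. Hepatocyte identity genes summed to 36260 to 88910 CPM in Mki67-high and 57730 to 81240 CPM in Mki67-low tumours. Of these 20 genes Apob and F9 (1.25), coagulation factor IX, were called higher, near the 8.82% of all genes. The list had a median of -0.19, with 6 of 20 above 0. Alb, albumin, ranged from 13840 to 30010 CPM against 9392 to 30550 CPM. Afp, the fetal homologue of albumin, spanned 13.5 to 4153 CPM against 6.52 to 1562 CPM, and Gpc3, an oncofetal proteoglycan, 44.8 to 198 CPM against 9.16 to 68.5 CPM, with 0 calls among 15 oncofetal genes. Krt19, a bile duct keratin, was 799 CPM in Tu_F replicate 2 and 0.383 to 7.85 CPM in the other Mki67-high tumours, against 3.07 to 39.0 CPM in Mki67-low tumours. The cholangiocyte and progenitor list, with 0 of 12 members called, had a median of 1.86 that turned to -0.41 without F replicate 2 and was -0.50 with code style. Its genes summed to 4051 CPM in Tu_F replicate 2, and the median sum was 1359 CPM in Mki67-high and 1669 CPM in Mki67-low tumours. T cell genes summed to 13.6 to 72.4 CPM against 14.7 to 30.3 CPM, Kupffer cell genes to 331 to 653 CPM against 356 to 657 CPM, and stellate cell genes to 478 to 1770 CPM against 466 to 744 CPM. Granulocyte genes summed to 217 to 2764 CPM against 692 to 1925 CPM.

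Erythroid genes summed to 533 to 4360 CPM in Mki67-high and 474 to 2840 CPM in Mki67-low tumours, and Alas2, the erythroid haem enzyme, had 22.0, 16.9, 13.4, 19.0 and 78.8 CPM against 9.41, 42.3, 13.9, 23.0 and 7.17 CPM. Tu_F replicate 4, on which the fit with code style rests, was the highest. With code style the erythroid list had a median of 1.96 (13 of 15 above 0) and the granulocyte list of 1.19 (16 of 16 above 0), with 0 called in either, beside 0.30 for the mitosis list. Without covariate, with all 10 tumours kept, the erythroid and granulocyte medians were 0.34 and -0.17. Without F replicate 4, where code style dropped out, they were -0.65 and -0.95. Hba-a1, an alpha globin gene, ranged from 77.7 to 1417 CPM against 81.1 to 859 CPM, and the granule genes Elane and Mpo from 0.747 to 10.5 CPM against 0.314 to 14.4 CPM and from 1.25 to 17.9 CPM against 1.19 to 38.2 CPM. Cd3e and Cd8a of T cells, Clec4f of Kupffer cells, Muc13 of gut-type epithelium and Cyp2e1 of pericentral hepatocytes overlapped too, and 0 of them passed. In every list but the gut-type epithelial one each member had counts in both classes. The gut-type list had 2 of 12 members at 0 in all Mki67-high and 1 at 0 in all Mki67-low tumours. Single markers were called as follows, beside 8.82% of all genes higher and 3.81% lower. Ccr2 (1.82) rose of 15 monocyte and macrophage genes, F8 (1.48) of 10 sinusoidal endothelial genes and Lox (1.62) of 16 stellate cell genes. F8 went against its list, whose median was -0.38 with 2 of 10 members above 0. Marco (-1.22) fell of 10 Kupffer cell genes, and Pecam1 (-0.75) and Cdh5 (-0.60) of 12 vascular endothelial genes. With code style 0 of these markers were called. Pecam1, an endothelial adhesion protein, ranged from 24.1 to 30.2 CPM against 34.4 to 41.6 CPM (-0.75 ± 0.16, SE, adjusted p = 0.00915, edgeR). Ifih1 (1.32) and Ifit1 (1.59) rose of 18 interferon response genes, near the 8.82% of all genes called higher. That list had a median of -0.28, with 7 of 18 above 0. Dnajb1 (-0.63) was the 1 fall of 15 immediate early and heat shock genes, beside 3.81% of all genes called lower (list median -0.44).

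**Figure D5:**
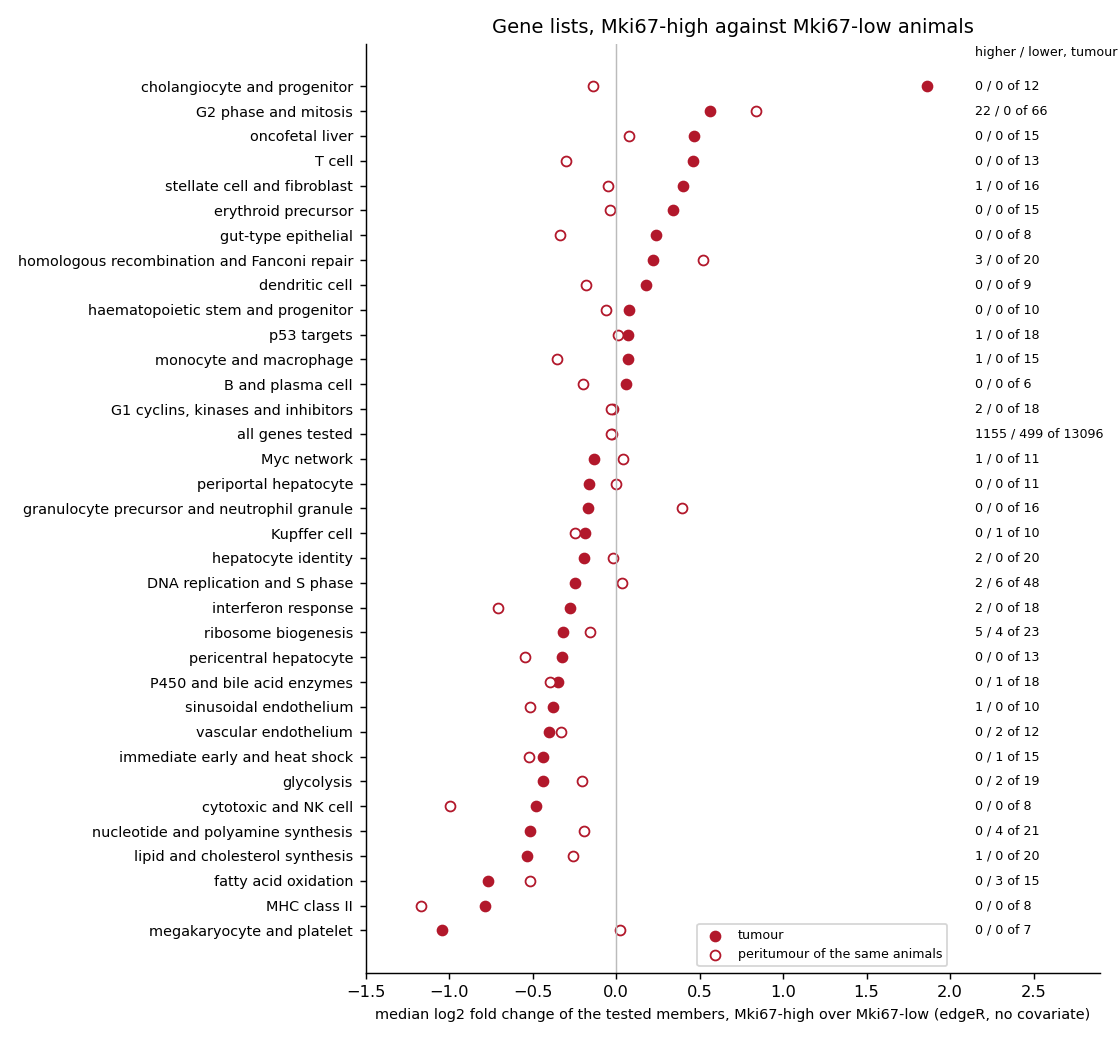
Median log2 fold change (edgeR, no covariate) of the tested members of each gene list in tumour (filled) and peritumour (open), with numbers called higher and lower in tumour at the right. The mitosis list, with 22 of 66 members higher in tumour, has a median of 0.56 in tumour and 0.84 in peritumour.

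Genes most like Mki67 were sought over all 14 tumours, among 9347 genes with a mean of at least 10 CPM. The highest Spearman's rho was that of Smc4 (0.98), followed by Cenpf, Cenpe, Ckap5, Baz2b, Ncapg, Thoc2, Gcc2, Kif11 and Ttk (0.96). Smc4, Cenpf, Cenpe, Ckap5, Ncapg, Kif11 and Ttk act in mitosis, while Baz2b is a bromodomain protein, Thoc2 acts in mRNA export and Gcc2 at the Golgi. Within the first code style (6 tumours) rho was 0.89 to 0.94 and within the second (8 tumours) 0.88 to 0.98. All 10 transcripts hold 37.5% to 46.4% GC, and the tumours share the composition differences above.

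In peritumour liver 1178 of 13186 genes were higher in Mki67-high animals without covariate (8.93%) and 496 lower (3.76%). With code style 54 were higher (0.41%) and 5 lower (0.0379%), and with the offset and no covariate 782 higher (5.93%) and 483 lower (3.66%). Of the mitosis list 44 of 66 members were higher and 0 lower (median 0.84, all genes -0.03), among them all 22 called in tumours. In 35 members the classes did not overlap, against 12.5% of all genes (1.2% in the opposite direction). The offset gave 46 members, leaving out 1 animal gave 32 to 51, and leaving out F replicates 2, 4, 5 and 6 gave 17. Above 46.2% GC 13 of 33 were called, and 21 with the offset. With code style 2 passed, Ckap2l (1.73) and Espl1, the gene of separase (1.46), at a list median of 1.13 against -0.02 over all genes.

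Smc4 in peritumour measured 70.0, 82.5, 86.7, 69.7 and 86.8 CPM next to Mki67-high and 13.4, 8.41, 18.7, 42.6 and 10.5 CPM next to Mki67-low tumours. F replicate 11 is the highest of the Mki67-low animals and still under every Mki67-high one (1.93 ± 0.41, SE, adjusted p = 0.014, edgeR, no covariate). Ccna2, cyclin A2, had 81.4, 149, 140.2, 102 and 137 CPM against 54.4, 62.9, 47.4, 66.4 and 44.9 CPM, also without overlap (1.03 ± 0.19, adjusted p = 0.00546), while in tumours it gave 0.39 ± 0.25 (adjusted p = 0.32). Ccnb1 (0.98) and Foxm1 (0.68) rose in peritumour, and Cdc20 gave 0.73 ± 0.22 (adjusted p = 0.0515). Of 48 replication genes 3 rose and 0 fell, beside 8.93% of all genes called higher and 3.76% lower, so the list did not rise beyond all genes. Among the 3 were Pola1 (1.32) and the primase subunit Prim2 (0.51). Leaving out 1 animal gave 2 to 7 rises, with 5 without M replicate 2 and 7 without F replicate 6.

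Igfbp1 in peritumour was 192, 119.7, 172, 218 and 66.5 CPM next to Mki67-high and 413, 404, 328, 387 and 417 CPM next to Mki67-low tumours. The classes did not overlap, and it fell in both fits (-1.47 ± 0.25, SE, adjusted p = 0.00409 without covariate and -2.61 ± 0.33, adjusted p = 0.0102 with code style, edgeR). Ccnd1 fell by 1.25 ± 0.23 and Creld2 by 1.76 ± 0.24 without covariate. Umps gave -0.14 ± 0.14 (adjusted p = 0.555), and of the 21 nucleotide and polyamine genes 0 passed. The largest changes without covariate were the rises of Hist1h2ap, Rpl37rt (3.25), Mki67, Serpina1e (2.36) and Cenpe (2.23) and the falls of Cyp4a14 (-2.12), Tmem254c (-1.95), Acot3 (-1.80), Cyp4a10 (-1.78) and Creld2.

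With code style the peritumour calls rest on Pe_F replicate 4. Rec8, a meiotic cohesin, had 96.6 CPM there and 10.1 to 16.4 CPM in the other Mki67-high animals, against 5.56 to 11.2 CPM in Mki67-low animals. Nr1d1, the clock repressor REV-ERB alpha, had 41.1 CPM there and 5.32 to 8.74 CPM in the others, against 7.04 to 16.0 CPM. Cry1, another clock repressor, had 6.12 CPM there and 22.9 to 31.1 CPM in the others, against 30.8 to 51.0 CPM. None of these 3 passed without covariate. Nr1d1 and Dbp, a clock output factor (2.79), were singled out after their values were seen. Cyp8b1 (2.42) and Cip2a, an inhibitor of PP2A (2.03), were among the other rises and Nr0b2 (-2.20), Prg4 (-1.96) and Btg1 (-1.46) among the other falls.

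The tumour minus peritumour difference was compared between the classes directly, first in fits with no term for the animal. These fits treat tumour and peritumour of one animal as unrelated libraries. Of 13608 genes 0 passed in edgeR with code style (0.0%), with 660 at an unadjusted p under 0.05, and DESeq2 called 7. For the mitosis list the median difference was -0.26, with 0 of 66 called. In a paired fit, with the animal as a block, the list median was -0.21. There too 0 of 66 members were called, and 0 of all genes. Without the block Smc4 gave 0.74 ± 0.49 (SE, adjusted p = 0.883, edgeR) and Umps -0.80 ± 0.17 (adjusted p = 0.624). Paired values of these genes are not given here. A p that misses the threshold does not show that the tissues were alike.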

How the data were processed

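RNA sequencing of 28 mouse liver libraries was analysed from the gene table that the authors deposited. Per the labels' protocols, RNA was extracted with Trizol, selected with oligo(dT) beads and primed with random hexamers; the sources used here do not give strandedness. The submitters' processing notes name RSEM 1.2.12, HISAT2 2.0.4, DESeq2 1.4.5 and Bowtie2 2.2.5, without roles. Values are estimated counts of each gene, as deposited by the authors and per the file headers, of which 8.06% are not whole. They were rounded for the tests, and 18182 genes with a gene ID were used, after 26 symbols turned into dates were looked up by gene ID. CPM were computed from column totals.

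Tests were made with edgeR 4.0.16 in R 4.3.3 (TMM, filterByExpr by class, robust quasi-likelihood fit, Benjamini-Hochberg over all genes tested, threshold 0.05), without Mki67 in the tumour comparison. The class fit has code style as covariate and was repeated without it. The fits with a length and GC offset (splines of 4 degrees of freedom) were chosen after seeing the data, as was applying the rule for named genes to the fit without covariate. Named genes were the 12 largest rises and falls among called genes with a mean of at least 10 CPM (5 in peritumour), up to 2 called members per list and direction, and a set always named; Cdc20, Plk1, Aurkb, Ccna2, Aspm, Cenpf, Kif11, Chaf1a, Dbp, Nr1d1, Nr1d2 and other list members given by fold change alone were named after their values were seen. Tumour and peritumour of one sample code were paired as one animal, a pairing taken from the titles. DESeq2 1.42.0 was an alternative. Single values were tested by exact permutation and the correlation with 100000 resamples. Scripts were tested on simulated data. Some genes that the rule names are not reported here. The members, lists and tests were chosen with earlier results of these data known.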

Additional observations from a re-analysis of the deposited data

Results flagged for a closer look

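Within groups of 4 or 5 libraries, 14 of 300 sets of values held a library far from the others, where chance gives about 1 in 20. In Mki67-high tumours these were Alb at 13840 CPM in Tu_F replicate 2, the lowest of its class, and Alas2 at 78.8 CPM in Tu_F replicate 4, the highest. In middle tumours Pcna stood apart at 109.5 CPM in Tu_M replicate 3, and the sum of lipid and cholesterol synthesis genes at 7073 CPM in Tu_F replicate 7. In Mki67-low tumours Cdkn1a was low in Tu_F replicate 8 (108 CPM), Cd8a high in Tu_F replicate 9 (4.96 CPM), and the long minus short transcript deviation low in Tu_F replicate 11 (-1.09).

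In peritumour next to Mki67-high tumours, Pe_F replicate 4 stood apart for E2f1 (28.6 CPM) and for the sum of gut-type epithelial genes (56.1 CPM), and Pe_M replicate 2 for B and plasma cell genes (257 CPM). Next to Mki67-low tumours, Pe_F replicate 6 stood apart for Elane (10.7 CPM), DNA replication genes (3187 CPM) and cytotoxic and NK cell genes (43.2 CPM), and Pe_F replicate 11 for long minus short transcripts (-0.54).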

How the results depend on the processing

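Counts of genes called with code style depended on nearly every choice. The tumour counts of 51 higher and 1 lower became 16 and 0 with RLE size factors, 11 and 1 with library size alone, 12 and 0 with letter added, 232 and 56 with DESeq2, 2 and 0 in letter F only, 1 and 0 in the second code style alone, 170 and 1 for 7 against 7, and 1 and 3 when ranked by the mitosis list. Without covariate they were 1155 and 499. Code style dropped out for 4 against 4 (911 and 393) and without F replicates 2, 4, 5 and 6 (788 and 94). Continuous Mki67 gave 204 and 114, and 0 and 0 within either code style. With the length and GC offset the counts were 2 and 0, without covariate 594 and 442, and with continuous Mki67 5 and 3. Leaving out 1 animal gave 1 to 203 higher and 0 to 1 lower with code style, 1181 and 409 without F replicate 4, where code style dropped out, and 871 to 1230 and 150 to 441 without covariate. Continuous Mki67 without covariate called 1569 higher, and its lower calls were within 1.5 times of 499.

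Peritumour counts of 54 higher and 5 lower became 22 and 3 with RLE size factors, 213 and 8 with library size alone, 10 and 2 with letter added, 340 and 191 with DESeq2, 11 and 2 in letter F only, 1 and 0 in the second code style alone, 5 and 0 for 7 against 7, and 0 and 0 when ranked by the mitosis list. Without covariate they were 1178 and 496, and code style dropped out for 4 against 4 (628 and 274) and without F replicates 2, 4, 5 and 6 (609 and 122). Continuous Mki67 gave 0 and 0, also within either code style and with the offset, and 351 and 140 without covariate. The offset gave 96 and 10, and 782 and 483 without covariate. Leaving out 1 animal gave 8 to 377 and 2 to 67 with code style, 974 and 388 without F replicate 4, where code style dropped out, and 661 to 1491 and 160 to 855 without covariate.

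With the animal as a replicate block, a paired fit, the difference of tumour minus peritumour between classes gave 0 genes, as without the block. DESeq2 without the block gave 7, and leaving out 1 animal, also without it, 0 to 1 (H2-Q6, without F replicate 9). Mki67 in peritumour was 2.72 higher in the second code style alone, and 2.56 to 2.98 higher with 1 animal left out. The correlation stood at 0.647 within the first code style and 0.555 within the second, and 0.708 to 0.809 with 1 animal left out. Within the first code style, continuous Mki67 gave slopes below 0 for Esf1 (-0.061), Nol8 (-0.080), Mphosph8 (-0.20) and Mphosph10 (-0.00867), and ranking by the mitosis list gave -0.041 for Mphosph8. Over the named genes and alternatives 2964 values kept direction and side of the threshold, 330 newly passed, 204 no longer passed and 5 turned; the cause was not tested.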

Other observations

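Genes with a Zfp symbol, which name zinc finger proteins, were numerous among the rises, and were singled out after their values were seen. Of 330 tested in tumours, 134 were called higher in Mki67-high and 3 lower without covariate, beside 8.82% and 3.81% of all genes, at a median log2 fold change of 0.74. With the length and GC offset 79 were higher and 1 lower, beside 4.54% and 3.38% (median 0.52), and with code style 15 were higher, beside 0.389% of all genes. In peritumour 110 of 333 were higher and 1 lower, beside 8.93% and 3.76% (median 0.43). Their median transcript GC was 44.6%, against 50.2% over all genes tested.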
